A study of Mus musculus with 12 samples.

Results

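The genes described here encode the protein core of the spliceosome and the SR splicing factors, as measured by RNA sequencing in astrocytes of mice with and without Cd38, the ectoenzyme that consumes NAD. Members were all genes whose symbols start with Lsm, Snrp, Sf3a, Sf3b, Prpf or Srsf and whose mean level over the 12 libraries was at least 5 TPM, a unit of transcript abundance corrected for length and scaled to a fixed library sum. Of 20614 genes in the table, 60 carried such a symbol and 56 met the level. The mean level over all libraries chose the members, and the comparison of ring genes with SR genes, as well as the interest in Lsm4, was set with earlier results of these data known. The 4 genes left out were Srsf12 at a mean of 2.10 TPM, Lsm11 at 1.76 TPM, Lsmem1 at 0.124 TPM and Lsmem2 at 0.0150 TPM, of which the Lsmem genes have no role in splicing. The members nearest to the limit were Lsm14b at 9.56 TPM and Prpf4 at 12.4 TPM.

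Male mice of 12 to 14 months gave 3 Cd38+/+ (wild-type), 3 Cd38+/- (heterozygous) and 6 Cd38-/- (knockout) libraries. The knockout is the global B6.129P2-Cd38tm1Lnd/J allele, so every cell of the body lacks the enzyme and not astrocytes alone. Striatum, thalamus and substantia nigra, together called midbrain, were dissected and dissociated, endothelial cells, myelin with oligodendrocytes and microglia were removed on magnetic beads, and astrocytes were then pulled down with beads against ACSA-2. Controls were matched by litter or by peers, per the study's methods, which do not tie a library to a litter or say whether a library pooled animals, so the spread between libraries is the error used throughout. Cd38 itself was 125 ± 22.2 TPM (SD, n = 3) in Cd38+/+, 90.6 ± 0.231 TPM (n = 3) in Cd38+/- and 15.7 ± 5.21 TPM (n = 6) in Cd38-/-, in the order of the labels.

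The spliceosome removes introns from pre-mRNA. Its building blocks are small nuclear ribonucleoproteins (snRNPs), each a short RNA held by a ring of small proteins. The Sm proteins form the ring on the U1, U2, U4 and U5 snRNAs, and the related LSm proteins form a nuclear ring on U6 and a cytoplasmic ring that takes part in mRNA decay. SF3A and SF3B are the complexes of the U2 snRNP that hold it at the branch point, and the Prpf genes encode mainly proteins of the U5 snRNP, the U4/U6.U5 tri-snRNP and the steps of activation and catalysis. SR proteins are not part of an snRNP. They bind exons through RNA-recognition motifs and recruit the U1 and U2 machinery through domains rich in arginine and serine.

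All 56 members were detected in every library, from a lowest value of 1.60 TPM. TPM divides by transcript length, and levels of genes are set side by side on that scale. Whether length still shaped the levels between genes was not tested. Srsf5, an SR protein, was the most abundant at a mean of 675 TPM over the 12 libraries. It was followed by Snrpb at 235 TPM, which encodes the Sm proteins B and B', by Sf3b2 at 229 TPM, a subunit of SF3B, and by Srsf1 at 200 TPM, the founding SR protein. The SR genes had the highest levels as a class, with a median of 158 TPM and a range of 54.1 to 675 TPM over 10 genes. The 8 Sm ring genes had a median of 86.0 TPM and a range of 35.8 to 235 TPM, and the 8 LSm ring genes a median of 49.8 TPM and a range of 18.5 to 178 TPM. Proteins that form 1 ring in equal numbers thus had transcripts at levels that differed widely, with Lsm7 at 178 TPM and Lsm1 at 18.5 TPM. The 5 genes of U1 proteins had a median of 56.6 TPM, the 11 of U2 proteins 59.9 TPM, the 6 of U5 and tri-snRNP proteins 47.2 TPM and the 4 of activation and step factors 44.4 TPM.

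**Figure D1:**
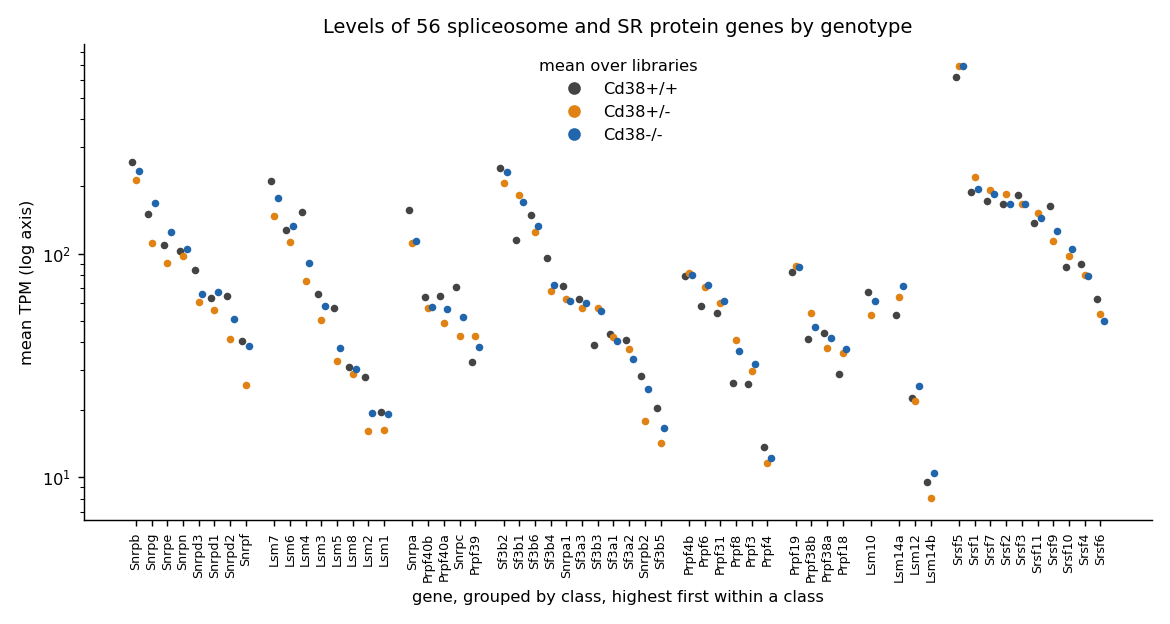
Mean level of each of the 56 members in each genotype, in TPM on a log axis, with genes grouped by class from the Sm ring on the left to the SR proteins on the right. Each point is the mean over the 3 Cd38+/+, 3 Cd38+/- or 6 Cd38-/- libraries, and Srsf5 stands highest with an overall mean of 675 TPM.

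The libraries of the genotypes differed in the number of genes detected and in spread. Between 13160 and 13516 genes had a value above 0 in the Cd38+/+ libraries, against 16160 to 16327 in Cd38+/- and 15920 to 17906 in Cd38-/-. Members varied most between wild-type libraries, with a median SD on the log2(TPM + 1) scale of 0.32, against 0.16 in Cd38+/- and 0.18 in Cd38-/-. The files hold TPM, so sequencing depth is unknown. Summed astrocyte markers (10 genes) ranged from 11670 to 17740 TPM in Cd38+/+, 16917 to 19268 TPM in Cd38+/- and 12655 to 17046 TPM in Cd38-/-. Summed oligodendrocyte markers (8 genes) ranged from 1300 to 7187 TPM, 3093 to 11030 TPM and 3176 to 17814 TPM in the same order, so myelin RNA remained in every library. Endothelial markers (7 genes) summed to 424 to 1955 TPM in Cd38+/+, 351 to 706 TPM in Cd38+/- and 381 to 1280 TPM in Cd38-/-. Microglia markers (8 genes) lay between 107 and 163 TPM and neuron markers (8 genes) between 30.3 and 111 TPM over all libraries, with Tmem119, Cx3cr1 and Th at 0 in all Cd38+/+ libraries. In bulk samples, fewer cells of a type and less RNA per cell cannot be told apart.

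Genotypes were compared with limma on log2(TPM + 1) over all genes with a mean above 5 TPM in at least 1 of the genotypes compared. A gene was called where its Storey q was under 0.05 and its change at least 1.2-fold. All 56 members entered all 3 comparisons. The comparisons of Cd38+/- and of Cd38-/- with Cd38+/+ share the Cd38+/+ libraries, and the comparison of Cd38-/- with Cd38+/- shares libraries with both, so the 3 sets of values are not independent of each other.

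In Cd38-/- against Cd38+/+ astrocytes, 2 of 56 members were called: Lsm4 was lower and Sf3b1 was higher. The background was 970 of 11722 genes tested, or 8.28%, with 1.86% called lower and 6.42% called higher. Among the members the share was 1.79% in each direction, 1 gene each. No SR gene was called. At an unadjusted p under 0.05, 6 members were lower and 3 were higher, against 5.99% and 17.6% of all genes.

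Lsm4 encodes a subunit present in both the nuclear and the cytoplasmic LSm ring. The gene (ENSMUSG00000031848) lies on the plus strand of chromosome 8, from 70673248 to 70678752 in GRCm38. Its level was 161, 144 and 155 TPM in the Cd38+/+ libraries and 69.1, 90.5 and 66.4 TPM in the Cd38+/- libraries. In the 6 Cd38-/- libraries it ran from 74.8 TPM through a median of 92.3 TPM to 103 TPM. Every library with a mutant allele lay below every Cd38+/+ library, and the Cd38+/- and Cd38-/- libraries overlapped.

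The means of Lsm4 were 153 ± 8.74 TPM (SD, n = 3), 75.4 ± 13.2 TPM (n = 3) and 91.1 ± 9.75 TPM (n = 6). In Cd38-/- against Cd38+/+ the log2 fold change was -0.75 (SE 0.13, limma q = 0.0114, two-sided exact permutation p = 0.0119, the smallest that 6 against 3 allows). In Cd38+/- against Cd38+/+ it was -1.03 (SE 0.18, limma q = 0.158, exact permutation p = 0.10, the smallest that 3 against 3 allows), and in Cd38-/- against Cd38+/- it was 0.28 (limma q = 0.327). The Cd38-/- call was kept in 9 of 9 fits that left out 1 library, with q between 0.00481 and 0.0398. Under 12 other settings it was lost in 3, namely library quality weights (q = 0.264), the replicate number as a block (q = 0.324) and that block with a correction for transcript length and GC content (q = 0.372).

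Within the LSm ring, Lsm4 also moved relative to its partners. It made up 22.2 ± 2.47% of the summed TPM of Lsm1 to Lsm8 in Cd38+/+ (SD, n = 3), with a range of 20.3 to 25.0%. Its share was 15.8 ± 1.96% in Cd38+/- (n = 3) and 16.1 ± 1.10% in Cd38-/- (n = 6), and the highest share of any mutant library was 18.1%. A share within a library does not depend on how libraries are scaled to each other. Since Lsm4 was chosen for its difference, these shares are a description with no test.

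The summed level of the 8 LSm ring genes was 645 to 725 TPM in Cd38+/+, 402 to 545 TPM in Cd38+/- and 482 to 637 TPM in Cd38-/-, so the Cd38+/+ libraries stood above all others. Without Lsm4, the sums were 483 to 570 TPM in Cd38+/+, 333 to 454 TPM in Cd38+/- and 395 to 534 TPM in Cd38-/-. The Cd38-/- libraries then overlapped with Cd38+/+, while the Cd38+/- libraries still lay below it.

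Lsm2, a further subunit of both LSm rings (ENSMUSG00000007050, chromosome 17, plus strand, 34981862 to 34985891 in GRCm38), had the same arrangement at a lower level. It was 27.7, 27.2 and 29.0 TPM in the Cd38+/+ libraries and 17.9, 14.4 and 15.9 TPM in the Cd38+/- libraries. In Cd38-/- it ran from 15.7 TPM through a median of 18.6 TPM to 26.8 TPM. No mutant library reached the lowest Cd38+/+ library, although 1 Cd38-/- library, replicate 2, came within reach of it.

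Lsm2 was not called. Its log2 fold change was -0.53 in Cd38-/- (SE 0.21, limma q = 0.0867, exact permutation p = 0.0119), -0.77 in Cd38+/- (SE 0.28, limma q = 0.204, exact permutation p = 0.10) and 0.23 in Cd38-/- against Cd38+/- (limma q = 0.45). It passed the threshold in Cd38-/- under 3 of 12 other settings, namely median-ratio scaling, quantile normalization and a correction for transcript length and GC content, in which a smooth curve fitted across genes was subtracted from each library. Lsm4, Lsm2 and Sf3b1 were the members whose Cd38+/+ libraries overlapped with neither mutant genotype. Non-overlap occurred in Cd38-/- for 2 members lower and 1 higher, against 3.62% and 8.21% of all genes.

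**Figure D2:**
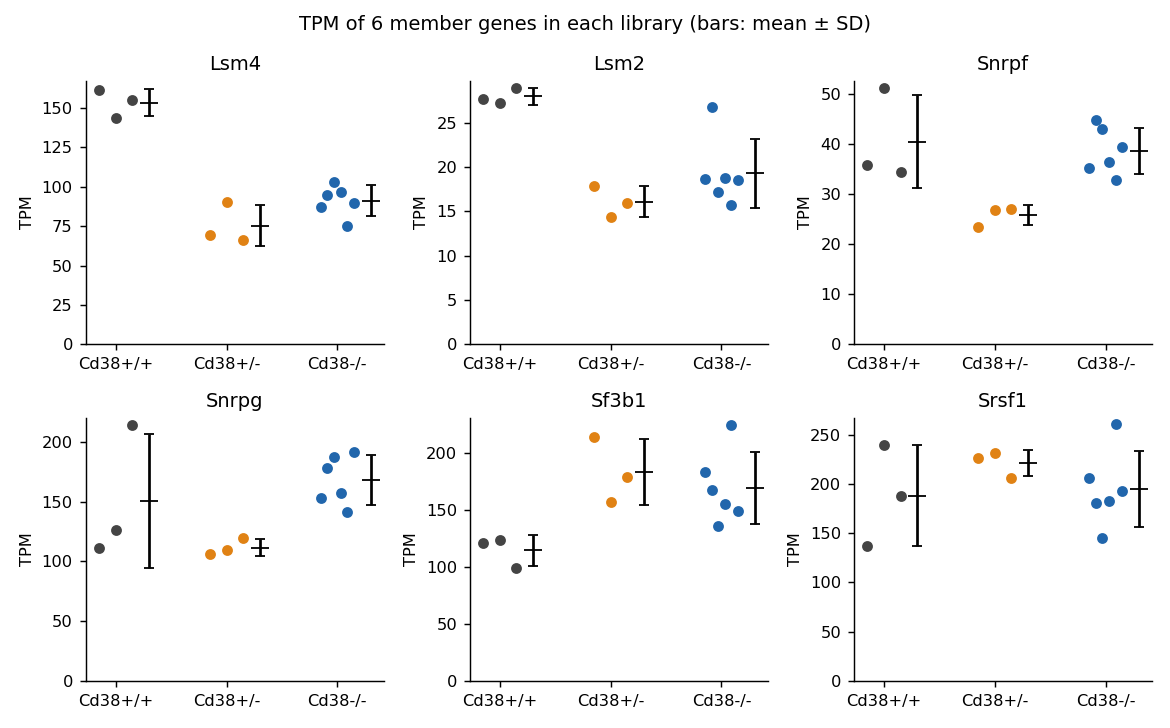
TPM of 6 members in each library, with the mean ± SD of the genotype beside the points (n = 3 Cd38+/+, 3 Cd38+/- and 6 Cd38-/-), each panel with its own axis from 0. Lsm4 is highest in the 3 Cd38+/+ libraries, Sf3b1 is lowest in them, Snrpf and Snrpg are lower in Cd38+/- than in Cd38-/-, and Srsf1 overlaps between all genotypes.

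Sf3b1 encodes the large subunit of SF3B that contacts the branch site and is a recurrent site of mutation in blood cancers. The gene (ENSMUSG00000025982) lies on the minus strand of chromosome 1, from 54985169 to 55027481 in GRCm38. Its level was 121, 124 and 99.4 TPM in the Cd38+/+ libraries and 215, 157 and 179 TPM in the Cd38+/- libraries. In Cd38-/- it ran from 136 TPM through a median of 162 TPM to 225 TPM. All mutant libraries lay above all Cd38+/+ libraries.

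The means of Sf3b1 were 115 ± 13.3 TPM (SD, n = 3), 184 ± 29.0 TPM (n = 3) and 170 ± 31.8 TPM (n = 6). The log2 fold change in Cd38-/- was 0.55 (SE 0.16, limma q = 0.0439, exact permutation p = 0.0238). In Cd38+/- it was 0.67 (SE 0.18, limma q = 0.176, exact permutation p = 0.10), and in Cd38-/- against Cd38+/- it was -0.12 (limma q = 0.584). The call was kept in 4 of 9 fits that left out 1 library and was lost without Cd38-/- replicate 1 (q = 0.0953), 2 (q = 0.0990), 4 (q = 0.0547), 5 (q = 0.0875) or 6 (q = 0.0740). Under 12 other settings it was lost in 6: median-ratio scaling (q = 0.0671), Benjamini-Hochberg adjustment (0.0777), library quality weights (q = 0.459), the length and GC correction, the replicate block (q = 0.332) and both of these together (q = 0.711). With the length and GC correction the log2 fold change was 0.16 (limma q = 0.257), and with the block as well it was 0.03. As for Lsm4, the block used only the Cd38-/- libraries that share a number with a Cd38+/+ library.

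Among the SF3B genes that are members, Sf3b1 to Sf3b6, Sf3b1 took 17.5 ± 2.64% of the summed TPM in Cd38+/+. Its share was 27.9 ± 1.58% in Cd38+/- and 24.9 ± 3.08% in Cd38-/-. The highest share in a Cd38+/+ library was 19.3% and the lowest in a mutant library 22.7%, again as a description with no test. Sf3b1 has the longest transcript of these genes, at 6195 nt against 757 to 4525 nt. The part of length in its share was not tested. The summed level of the other 5 genes, Sf3b2 to Sf3b6, was 505 to 589 TPM in Cd38+/+ and 435 to 509 TPM in Cd38+/-. In Cd38-/- it was 452 to 595 TPM, with overlap between all genotypes. Among those 5, Sf3b3, a scaffold subunit of SF3B, had values on the same side as Sf3b1 and did not pass the test. It was 32.5, 47.6 and 37.0 TPM in Cd38+/+, 65.7, 47.2 and 57.8 TPM in Cd38+/- and 46.4 to 69.4 TPM in Cd38-/-, with overlap between wild type and both mutant genotypes. Its log2 fold change was 0.49 in Cd38-/- (SE 0.18, limma q = 0.0742) and 0.54 in Cd38+/- (SE 0.24, limma q = 0.238). Sf3b3 was called higher in Cd38-/- beside Sf3b1 without a filter on low values, in one fit of all 12 libraries and without Cd38+/+ replicate 2, and its log2 fold change there was 0.10 with the length and GC correction. It was named after its values were seen, and its exons overlap with Cog4 on the opposite strand. Of all 11 genes of U2 proteins, 9 had a log2 fold change below 0 in Cd38-/- and the median was -0.12, beside a median of 0.15 over all genes.

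In Cd38+/- against Cd38+/+ astrocytes, limma called 0 of 56 members and 0 of 11763 genes tested (0%). At an unadjusted p under 0.05, 9 members were lower and 2 were higher, against 3.99% and 9.5% of all genes. In 11 members (19.6%) the highest Cd38+/- library lay below the lowest Cd38+/+ library, against 6.94% of all genes. In 4 members (7.14%) all Cd38+/- libraries were above wild type, against 15.5% of all genes. Together, 36 of 56 members had a log2 fold change below 0, against 35.6% of all genes.

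Of these 36 members, 16 were ring genes. All 16 ring genes had a negative log2 fold change, from -1.03 for Lsm4 to -0.06, with a median of -0.32. The median over all genes tested was 0.18. Of the ring genes, 7 had an unadjusted p under 0.05 and in 7 the libraries did not overlap, against 3.99% and 6.94% of all genes in the same direction. The median of the ring genes stayed below 0 under quantile normalization (-0.38), median-ratio scaling (-0.45) and the length and GC correction (-0.45). Median-ratio scaling moved the median of all genes to 0.05, and the length and GC correction moved it to -0.05.

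Sm proteins are the common core of the spliceosomal snRNPs, and 5 of their genes had no overlap between Cd38+/- and Cd38+/+ libraries. Snrpd2, encoding Sm protein D2, was 50.3, 62.8 and 80.4 TPM in Cd38+/+ and 35.2, 47.2 and 42.1 TPM in Cd38+/- (log2 fold change -0.61, limma q = 0.222). Snrpf, encoding Sm protein F, was 35.8, 51.2 and 34.4 TPM in Cd38+/+ and 23.4, 26.9 and 27.0 TPM in Cd38+/- (log2 fold change -0.61, limma q = 0.23). In both genes the highest Cd38+/- library lay below the lowest Cd38+/+ library, and neither change passed the test.

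Snrpd3, encoding Sm protein D3, had a log2 fold change of -0.45 (limma q = 0.225), Snrpb one of -0.26 (limma q = 0.293) and Snrpe, encoding Sm protein E, one of -0.25 (limma q = 0.327). Of these, Snrpb had means of 258 ± 35.4 TPM in Cd38+/+ and 214 ± 4.91 TPM in Cd38+/-. Snrpb and its neuronal relative Snrpn encode nearly the same protein, so reads could be split between them. Exons of Snrpd3 and of Snrpf overlap with a gene on the opposite strand, and the cDNA kit does not keep the strand. These genes were chosen for description after their values were seen, because their libraries did not overlap.

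Outside the rings, 2 proteins of the U1 snRNP stood on the same side in Cd38+/-. Snrpc, encoding U1-C, which helps U1 to pair with the 5' splice site, was 90.7, 56.6 and 64.6 TPM in Cd38+/+ and 40.5, 45.6 and 42.2 TPM in Cd38+/- (log2 fold change -0.68, limma q = 0.196). Snrpa, encoding the U1-A protein that binds a stem loop of U1 RNA, was 153, 130 and 190 TPM in Cd38+/+ and 108, 121 and 106 TPM in Cd38+/- (log2 fold change -0.48, limma q = 0.216). The genotypes did not overlap in either gene. Exons of Snrpa overlap with BC024978 on the opposite strand.

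Sf3b5, a small subunit of SF3B, had a log2 fold change of -0.50 (limma q = 0.327) and Lsm10, which replaces an Sm protein in the U7 snRNP that matures histone mRNA, one of -0.33 (limma q = 0.325). Besides Sf3b1, 3 members lay on the other side. Prpf8, the scaffold at the catalytic centre of the spliceosome, was 20.9, 23.5 and 34.8 TPM in Cd38+/+ and 47.2, 38.4 and 37.1 TPM in Cd38+/- (log2 fold change 0.64, limma q = 0.234). Prpf38b, a relative of the activation factor Prpf38a, had a log2 fold change of 0.36 (limma q = 0.319) and Prpf3, a tri-snRNP protein bound to U4/U6, one of 0.20 (limma q = 0.463). The last 2 turned to -0.03 and -0.16 with the length and GC correction.

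In Cd38-/- against Cd38+/+ the median log2 fold change of the 16 ring genes was -0.06, with 10 below 0 and 6 above, beside 35.7% of all genes below 0. It was -0.01 for the 8 Sm genes and -0.15 for the 8 LSm genes. Of the ring genes, 4 had an unadjusted p under 0.05 on the lower side, 3 of them LSm genes. The median of all genes was 0.15, and median-ratio scaling moved it to 0.03 and the median of the ring genes to -0.18.

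In Cd38-/- against Cd38+/-, limma called 0 of 56 members, against 4 of 11563 genes tested (0.0346%). All 16 ring genes had a log2 fold change above 0, from 0.06 to 0.58 with a median of 0.24, where 45.4% of all genes were above 0 and the median of all genes was -0.02. With the length and GC correction, 1 of the 16 was below 0 and the median was 0.17. Over all genes tested, 6200 were below 0 with that correction and 6314 without it, and the corrected median was -0.02. At an unadjusted p under 0.05, 6 members were higher and 0 were lower, against 6.24% and 5% of all genes. In 7 members (12.5%) the lowest Cd38-/- library exceeded the highest Cd38+/- library, against 2.85% of all genes, and in 0 members the reverse held, against 2.88%. Marker genes of cell types also differed between the mutant genotypes. All 10 astrocyte markers were below 0 with a median of -0.26, 4 of them at an unadjusted p under 0.05. Of the 6 choroid plexus and ependymal markers, 4 were above 0 and 2 below, with a median of 0.21. The part of cell makeup in the ring values was not tested.

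Snrpg, encoding Sm protein G, was 106, 109 and 120 TPM in Cd38+/- and ran from 141 TPM through a median of 168 TPM to 192 TPM in Cd38-/-. Its log2 fold change was 0.58 (SE 0.11, limma q = 0.0812, exact permutation p = 0.0119). The Cd38+/+ libraries held 111, 126 and 214 TPM and overlapped with both mutant genotypes. Snrpf ran from 32.7 TPM through 37.9 TPM to 44.7 TPM in Cd38-/-, above all Cd38+/- libraries (log2 fold change 0.56, SE 0.12, limma q = 0.113, exact permutation p = 0.0119).

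Snrpe had means of 91.2 ± 8.18 TPM in Cd38+/- and 125 ± 25.4 TPM in Cd38-/- and did not pass the test (log2 fold change 0.43, limma q = 0.252, exact permutation p = 0.0357). Snrpb2, encoding the U2-B'' protein that binds U2 RNA, was 15.7, 18.6 and 18.9 TPM in Cd38+/- and 21.6 to 27.8 TPM in Cd38-/- (log2 fold change 0.46, limma q = 0.184). Snrpc followed with 0.28 (limma q = 0.251), Lsm12, an LSm-domain protein outside the rings, with 0.22 (limma q = 0.397) and Lsm10 with 0.21 (limma q = 0.328). These genes were likewise singled out after their values were seen.

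**Figure D3:**
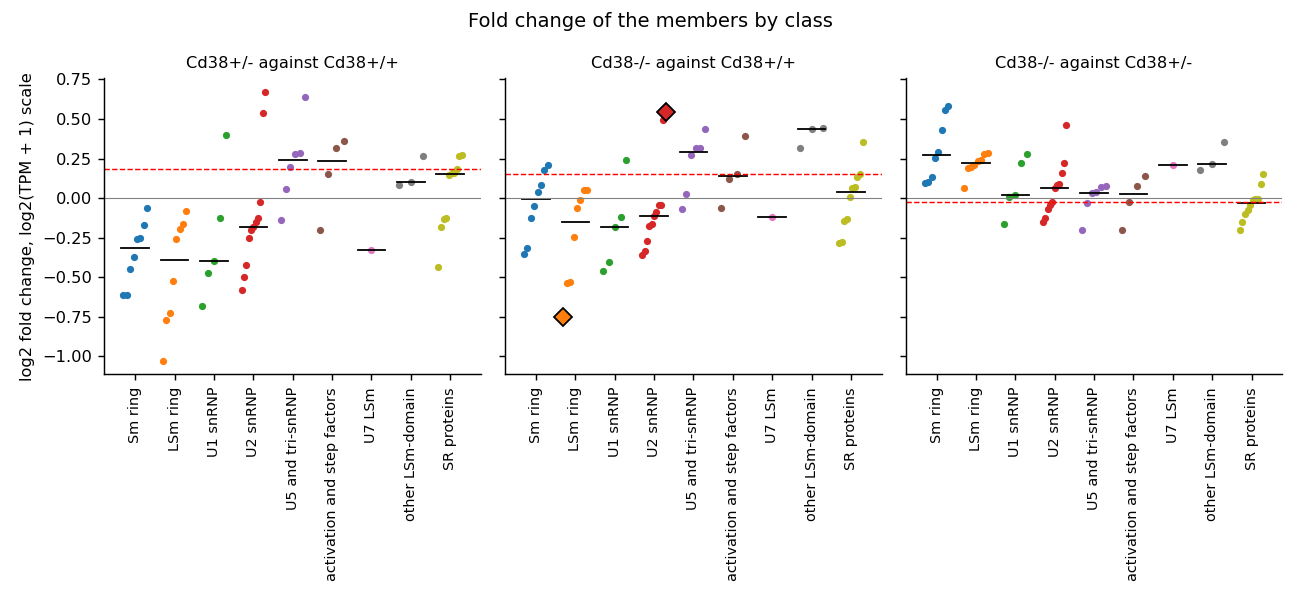
Log2 fold change of each member on the log2(TPM + 1) scale, by class, in the 3 comparisons. Points are genes, black bars class medians, the dashed red line the median of all genes tested, and diamonds the members called by limma (Lsm4 and Sf3b1 in Cd38-/- against Cd38+/+). All ring genes lie below 0 in Cd38+/- against Cd38+/+ and above 0 in Cd38-/- against Cd38+/-.

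None of the 10 SR genes was called by limma or had an unadjusted p under 0.05 in any comparison, and in none did the libraries of any pair of genotypes separate. Srsf5 was 567, 687 and 607 TPM in Cd38+/+, 819, 632 and 634 TPM in Cd38+/- and 595 to 875 TPM in Cd38-/-. Srsf1 was 137, 239 and 188 TPM in Cd38+/+, 227, 231 and 206 TPM in Cd38+/- and 145 to 261 TPM in Cd38-/-. Srsf7, an SR protein with a zinc knuckle, was 210, 171 and 135 TPM, then 200, 194 and 181 TPM, and 166 to 204 TPM in the same order. In each of these genes the genotypes overlapped.

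The log2 fold changes of the SR genes ranged from -0.43 to 0.27 in Cd38+/- and from -0.28 to 0.36 in Cd38-/- against Cd38+/+. Their medians were 0.15 and 0.04, beside medians of all genes of 0.18 and 0.15, so in Cd38-/- the SR median lay below that of all genes. The 95% intervals reached from -1.07 to 0.97 in Cd38+/- and from -0.74 to 0.87 in Cd38-/- over the 10 genes, so that of Srsf9 in Cd38+/- (-1.07 to 0.21) included the log2 fold change of Lsm4 there (-1.03), and none in Cd38-/- included that of Lsm4 (-0.75). In Cd38-/- against Cd38+/- the intervals stayed between -0.53 and 0.37. The sign of the SR median depended on the scaling. In Cd38-/- it was -0.09 with median-ratio scaling and -0.24 with the length and GC correction, where all 10 genes lay below 0. Over all genes tested, that correction put 6645 below 0, where 4187 were without it, and the median was -0.07. In Cd38+/- the SR median was 0.01 and -0.13 in the same order. With the length and GC correction the ring and SR medians in Cd38-/- were -0.25 and -0.24, near each other, while in Cd38+/- they were -0.45 and -0.13.

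The summed levels show the contrast in each library. The 16 ring genes summed to 1565 ± 141 TPM in Cd38+/+ (SD, n = 3), 1178 ± 108 TPM in Cd38+/- (n = 3) and 1422 ± 103 TPM in Cd38-/- (n = 6). The 10 SR genes summed to 1870 ± 85.5 TPM, 1958 ± 167 TPM and 1913 ± 185 TPM in the same order. The ring sums of Cd38+/-, at most 1276 TPM, lay below the lowest Cd38+/+ library at 1452 TPM, whereas the SR sums overlapped between all genotypes.

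The ratio of the ring sum to the SR sum was 0.803, 0.829 and 0.876 in Cd38+/+ and 0.494, 0.678 and 0.648 in Cd38+/-. In Cd38-/- it ran from 0.573 to 0.897, which took in all 3 Cd38+/+ libraries and 2 of 3 Cd38+/- libraries. Among the Cd38-/- libraries, replicate 5 had the highest SR sum, 2215 TPM, and the lowest ring sum, 1269 TPM. Among the Cd38+/- libraries the same held for replicate 1, with 2150 and 1063 TPM. That Cd38+/- library also stood apart in the summed choroid plexus and ependymal markers (6 genes), at 8676 TPM against 1869 and 1715 TPM in the other 2. The genes of that sum did not vary alike over the Cd38+/- libraries. Ttr was 2318 ± 3657 TPM, Folr1 123 ± 93.8 TPM and Kl 46.7 ± 77.7 TPM. Foxj1 was 132 ± 39.2 TPM, Ccdc153 793 ± 90.3 TPM and Tmem212 675 ± 42.3 TPM. Without replicate 1, the ring sums of Cd38+/- were 1194 and 1276 TPM, still below every Cd38+/+ library. The contrast of rings and SR genes is a description with no test.

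**Figure D4:**
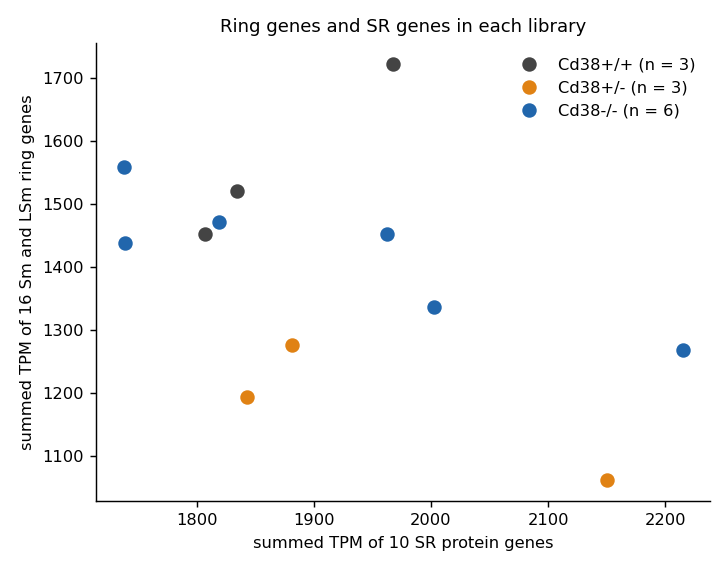
Summed TPM of the 16 Sm and LSm ring genes against that of the 10 SR protein genes, 1 point per library, coloured by genotype; both axes start above 0. The 3 Cd38+/- libraries lie at or below 1276 TPM on the ring axis, the 3 Cd38+/+ libraries at or above 1452 TPM, and the SR sums overlap.

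Transcript length moved with these differences. Ring genes have a median transcript length of 866 nt, SR genes of 1843 nt, and all genes tested of 2128 nt. Over the 56 members, Pearson's r between log2 length and log2 fold change was 0.62 for Cd38+/- against wild type, 0.48 for Cd38-/- against wild type and -0.50 between the mutant genotypes. Over all genes tested it was 0.26, 0.16 and -0.25. These are correlations across genes of the same libraries, and genes are not independent replicates.

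Each library was also described by the slope of its deviation from the 12-library mean on log2 transcript length, over 11653 tested genes that are not members. The slope was -0.10, -0.05 and -0.10 log2 units per doubling of length in the Cd38+/+ libraries, 0.16, -0.01 and 0.06 in Cd38+/-, and from -0.11 to 0.13 in Cd38-/-. Cd38-/- replicate 3, at -0.11, had a slope like that of wild type, and its ring to SR ratio of 0.897 exceeded all Cd38+/+ libraries. In this library Lsm4 stood at 103 TPM and Sf3b1 at 136 TPM, outside the range of the Cd38+/+ libraries. The same holds for every mutant library in both genes, which were described with that separation known. The values of single libraries are thus no test of length. Cd38-/- replicate 4, at -0.06, held 96.9 TPM of Lsm4 and 156 TPM of Sf3b1.

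The length and GC correction left Lsm4 called in Cd38-/- (log2 fold change -0.70, limma q = 0.00725) and not Sf3b1. It raised the number of members called from 2 to 9, all lower, and these included the SR genes Srsf3 and Srsf6. The same correction moved the median of all genes tested from 0.15 to -0.07. The share of all genes called under it is not given here, so the 9 calls have no background beside them. The split of higher and lower calls was thus 1 and 1 in the values as deposited, 0 and 9 with this correction, and 0 and 3 with median-ratio scaling. The library highest in summed oligodendrocyte markers was also the highest in the ring sum in Cd38-/- (replicate 3, 17814 and 1559 TPM) and in Cd38+/- (replicate 2, 11030 and 1276 TPM), while in Cd38+/+ it was the lowest (replicate 1, 7187 and 1452 TPM). Summed choroid plexus and ependymal markers ranged from 1619 to 2865 TPM in Cd38+/+ and from 2046 to 4493 TPM in Cd38-/-, where limma called Ttr (q = 0.0291) and Folr1 (q = 0.0180) higher. The part of length and of astrocyte, oligodendrocyte, choroid plexus and ependymal RNA in the contrast of rings and SR genes was not tested.

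**Figure D5:**
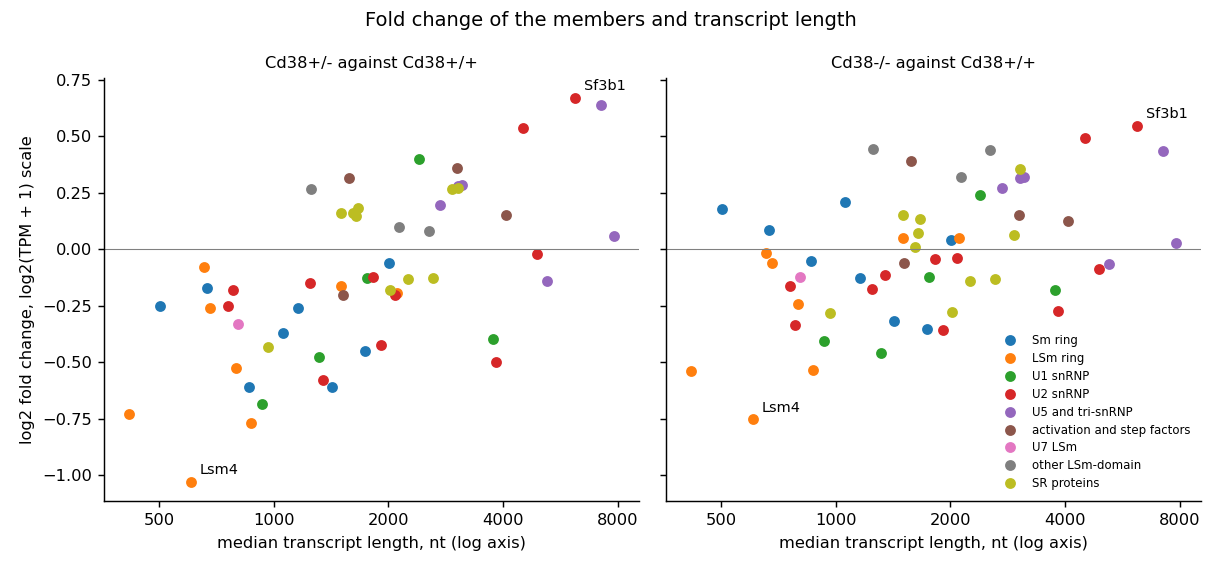
Log2 fold change of the 56 members against Cd38+/+, on the log2(TPM + 1) scale, plotted on the median length of their annotated transcripts (log axis), coloured by class, for Cd38+/- on the left and Cd38-/- on the right. Lsm4 (606 nt) lies lowest and Sf3b1 (6195 nt) highest in both panels, with Pearson's r of 0.62 and 0.48.

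Other genes of the pathway were taken as whole lists. Of 14 genes of snRNP assembly, which load the Sm ring onto snRNA through the SMN complex, limma called 1 higher and 1 lower in Cd38-/- against Cd38+/+. Gemin6 was 2.31 ± 2.10 TPM in Cd38+/+ (SD, n = 3) and 11.7 ± 1.81 TPM in Cd38-/- (n = 6, limma q = 0.0195). Gemin7, its partner in the complex, was 145 ± 8.75 TPM and 102 ± 11.5 TPM (log2 fold change -0.51, limma q = 0.0321). The Cd38+/+ mean of Gemin6 lay below the level required for testing, so the gene was tested because of its Cd38-/- mean alone. Genes above 0 numbered 13160 to 13516 in the Cd38+/+ libraries and 15920 to 17906 in Cd38-/-. The part of this lower detection in the rise of Gemin6 was not tested, so the calls are not read as opposite moves of a pair. Of all genes tested, 6.42% were called higher and 1.86% lower, and the median of the list was 0.04.

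Of 46 other spliceosome components, 4 rose and 1 fell in the same comparison, near the background of 6.42% and 1.86%. The risen genes were the helicases Ddx42, which is tied to SF3B, Dhx15 and Dhx8, which take the spliceosome apart or release the mRNA, and Rbm17, a U2-associated protein. Dhx15 went from 28.5 ± 8.14 TPM to 50.4 ± 4.69 TPM (log2 fold change 0.83, limma q = 0.0232) and Ddx42 from 26.7 ± 14.5 TPM to 51.5 ± 9.18 TPM (log2 fold change 1.07, limma q = 0.0455). The gene that fell was Zmat5, of the minor spliceosome, from 148 ± 31.6 TPM to 94.2 ± 10.2 TPM (log2 fold change -0.63, limma q = 0.03). Of 18 SR kinases, import factors and SR-related genes, limma called 0, with 2 higher and 0 lower at an unadjusted p under 0.05. In Cd38+/- against Cd38+/+ none of these lists held a call by limma, and 4 genes were higher and 3 lower at an unadjusted p under 0.05, beside 9.5% and 3.99% of all genes.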

How the data were processed

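Expression was measured in 12 libraries of ACSA-2 selected midbrain astrocytes. The authors trimmed reads with Trim Galore 0.6.4, mapped them to mm10 with STAR 2.7.1a and deposited TPM from RSEM 1.2.28, 1 column per library; the annotation release is not given in the sources used here. TPM holds no depth, so counting error has no interval here. Genotypes came from the labels. Members, classes and gene lists were chosen with earlier results of these data known. Per comparison, genes with a mean above 5 TPM in a genotype were fitted on log2(TPM + 1) with limma 3.58.1 in R 4.3.3 (eBayes with trend) and adjusted by Storey's q over all of them, after tests on simulated data. Fold changes on this scale understate those of low genes. Named were Cd38, Lsm4, called members, the 3 highest of each class, and members whose Cd38+/+ libraries overlapped with neither mutant genotype; others were named after their values were seen, mostly because libraries of 2 genotypes did not overlap. Lengths, GC content and positions came from GENCODE vM21 (GRCm38). Alternatives covered pseudocounts, filters, scalings, length and GC, weights, adjustment, pairing and left-out libraries. Marker lists of choroid plexus and ependyma (2060 ± 698, 4087 ± 3975 and 3315 ± 784 summed TPM in Cd38+/+, Cd38+/- and Cd38-/-) and of dissociation response (546 ± 183, 355 ± 117 and 390 ± 87.6 TPM) were summed as well.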

Additional observations from a re-analysis of the deposited data

Results flagged for a closer look

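Among 58 items tested in the 6 Cd38-/- libraries, 2 had 1 library far from the other 5, and chance gives about 1 in 20. Lsm2 was 26.82 TPM in replicate 2, where the next library held 18.79 TPM and the lowest 15.68 TPM. Without that library the log2 fold change of Lsm2 against Cd38+/+ was -0.63 in place of -0.53 (limma q = 0.101). Lsm12, an LSm-domain protein outside the rings, was 32.44 TPM in replicate 1, where the next library held 25.47 TPM and the lowest 23.13 TPM.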

How the results depend on the processing

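The count of members called in Cd38-/- against Cd38+/+, 2 as reported, was 4 without a filter, 4 with quantile normalization, 4 with all 12 libraries in one fit, 3 with median-ratio scaling, 9 with the length and GC correction, 1 with Benjamini-Hochberg adjustment, 0 with library quality weights, and 1 to 9 with 1 library left out: 4, 7 and 9 without Cd38+/+ replicates 1, 2 and 3, and 1 without Cd38-/- replicate 1, 2, 4, 5 or 6. In Cd38+/- against Cd38+/+ the count of 0 became 1 without a filter, 1 with quality weights and 8 in one fit of all 12 libraries, and in Cd38-/- against Cd38+/- it became 12 with quality weights and 0 to 1 with 1 library left out (Snrpg without Cd38-/- replicate 4). The median of the ring genes in Cd38+/- was -0.45 with median-ratio scaling and -0.45 with that correction, and in Cd38-/- it was -0.25 with that correction. The SR median in Cd38+/- was 0.013 with median-ratio scaling and -0.13 with that correction, and in Cd38-/- it was -0.24. Prpf3 in Cd38+/- reversed to -0.16 and Prpf38b to -0.033 with that correction. The cause of these changes was not tested. The share of all genes called under each alternative is not given here, so these counts of members stand without a background.

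Whether replicate numbers pair the libraries was not settled. Deviations of same-numbered libraries correlated between -0.30 and 0.50, with the highest value between Cd38+/- and Cd38-/- replicate 1. Libraries of unlike number were not compared, so the values cannot show or exclude a pairing. With the replicate block, 0 members were called in Cd38-/- against Cd38+/+ (Lsm4 q = 0.324). Cd38-/- libraries whose number has no Cd38+/+ library do not bear on that estimate, so the block compares fewer libraries. With the block and the length and GC correction together, 0 were called there and 1 (Snrpg) in Cd38-/- against Cd38+/-, the ring medians were -0.45 and -0.28, the SR medians -0.13 and -0.24, and Prpf3 and Prpf38b in Cd38+/- were again -0.16 and -0.033.

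Of the values for single genes under all alternatives, 540 kept their direction and side of the threshold, 24 gained a call, 14 lost one and 4 reversed. Limits are the 3 Cd38+/+ libraries, with fewer genes detected and a larger spread, and the unknown depth.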
